A study of Mus musculus with 32 samples.

Results

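The expression of 44 cell cycle and DNA replication genes was followed in mouse liver tumours treated with regorafenib, an oral inhibitor of several kinases, with DC-101, an antibody against mouse VEGFR2, or with an antibody against PD1. The 44 genes were taken by name from a list of known cell cycle genes, drawn up with earlier results of these data known, and no measured value enters the rule. They were taken out of 54446 genes in each count table. They were 16 replication genes, 22 mitosis genes and 6 regulators or general markers of cycling cells. The tumours came from BNL-MEA, a liver cancer line of the mouse, which had been implanted in the liver of Balb/c mice with intact immunity, so each library held tumour cells, host liver and infiltrating cells together. RNA was extracted from tumour samples, which the labels call frozen and the study's methods fresh, and 32 libraries in 3 experiments were sequenced with a stranded mRNA kit. In the dose experiment (p112), 4 libraries came from mice given vehicle, 3 from mice given regorafenib at 5 mg/kg/day, called the low dose here, and 3 from mice given 20 mg/kg/day, called the high dose. In the DC-101 experiment (p103), 4 vehicle libraries stood beside 3 of the low dose and 3 of mice that had received DC-101 at 800 ug on days 1, 3 and 5. In the other experiment, named here for anti-PD1 (p101), there were 3 libraries in each of 4 groups, which received vehicle, the low dose, anti-PD1 or the low dose together with anti-PD1. The study's text speaks of separate tumours in each group of the anti-PD1 experiment. For the other experiments no source used here says that each library came from a separate animal, so p-values measure the spread between these samples only. The labels give the experiment as a batch, so each treatment was set against the vehicle of its own experiment.

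A dividing cell first licenses its replication origins by loading the MCM helicase, with the help of Cdc6 and Cdt1, and geminin (Gmnn) keeps Cdt1 from doing so again in the same cycle. Cyclin E then helps to start DNA synthesis, which needs nucleotides made by ribonucleotide reductase (Rrm1, Rrm2) and thymidylate synthase (Tyms) and the sliding clamp Pcna. Later, Cdk1 with cyclin B (Ccnb1, Ccnb2) drives mitosis, Plk1 and the Aurora kinases build the spindle, the checkpoint proteins Bub1, Bub1b, Mad2l1 and Ttk hold the chromosomes until they are attached, and Cdc20 starts their separation. Transcription of the replication genes is known to be driven mainly by activating E2F factors. That of the mitosis genes is driven by complexes with MYBL2 and FOXM1 and repressed by the DREAM complex in resting cells, in both cases through CHR elements. In bulk tumours a lower level of these genes can mean a smaller share of cycling cells, also where a library holds more host liver. It can also mean less RNA per cycling cell, and the data cannot tell these apart.

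E2F and CHR elements were found in different shares of the promoters of the replication and mitosis classes, while the CCAAT box was common in both. RefSeq promoters (GRCm38.p6, from 250 bases before to 50 bases after the start) were matched for 35 of the 44 genes. They were searched on both strands for an E2F element (TTTCCCGC, TTTCGCGC, TTTGCCGC or TTTGGCGC), for a CHR element (TTTGAA) and for a CCAAT box (CCAAT). Matches can overlap one another and were counted once per promoter. Of 13 replication promoters, 6 (46.2%) held an E2F element, against 1 of 18 mitosis promoters (5.56%) and 2.26% of all 32851 promoters. Of the 18 mitosis promoters, 12 (66.7%) held a CHR element, against 2 of 13 replication promoters (15.4%) and 17.9% of all promoters. A CCAAT box was found in 9 replication promoters (69.2%), in 15 mitosis promoters (83.3%) and in 37.4% of all promoters. Among the 4 regulator promoters with an entry, 2 held a CHR element and 0 held an E2F element. These matches are a description of letters and not of bound sites. For 27 of the 36 promoter entries of members, bases 11 to 35 after the start were found in a transcript of the gene. The 200 bases before the start are shown for 3 helicase genes with an E2F element and for 3 mitosis genes and Mki67 with a CHR element. The shares of these elements differed most between the classes compared throughout. Capitals mark E2F elements, CHR elements and CCAAT boxes on either strand.
Mcm5, chr8:75109309-75109508, plus strand: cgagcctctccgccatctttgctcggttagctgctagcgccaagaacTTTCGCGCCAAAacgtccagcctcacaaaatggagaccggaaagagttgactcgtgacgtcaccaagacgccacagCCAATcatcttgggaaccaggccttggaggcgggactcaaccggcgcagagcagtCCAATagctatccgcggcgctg
Mcm6, chr1:128359706-128359905, minus strand: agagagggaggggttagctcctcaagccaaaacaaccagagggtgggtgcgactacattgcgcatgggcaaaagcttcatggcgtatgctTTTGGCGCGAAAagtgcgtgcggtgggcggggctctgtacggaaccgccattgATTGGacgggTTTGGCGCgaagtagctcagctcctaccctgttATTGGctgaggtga
Mcm7, chr5:138171884-138172083, minus strand: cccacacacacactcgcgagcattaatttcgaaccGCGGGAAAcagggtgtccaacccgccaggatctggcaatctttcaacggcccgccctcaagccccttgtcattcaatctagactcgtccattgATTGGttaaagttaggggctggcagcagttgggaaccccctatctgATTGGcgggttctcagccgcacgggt
Ccnb2, chr9:70421555-70421754, minus strand: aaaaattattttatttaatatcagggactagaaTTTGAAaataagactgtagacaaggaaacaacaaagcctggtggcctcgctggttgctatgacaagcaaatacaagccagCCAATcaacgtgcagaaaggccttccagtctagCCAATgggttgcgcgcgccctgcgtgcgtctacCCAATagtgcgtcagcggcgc
Cdc20, chr4:118437344-118437543, minus strand: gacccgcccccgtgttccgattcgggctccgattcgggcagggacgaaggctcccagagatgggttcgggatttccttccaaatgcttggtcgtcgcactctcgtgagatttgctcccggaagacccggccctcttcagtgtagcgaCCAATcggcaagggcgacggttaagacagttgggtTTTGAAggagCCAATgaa
Top2a, chr11:99024190-99024389, minus strand: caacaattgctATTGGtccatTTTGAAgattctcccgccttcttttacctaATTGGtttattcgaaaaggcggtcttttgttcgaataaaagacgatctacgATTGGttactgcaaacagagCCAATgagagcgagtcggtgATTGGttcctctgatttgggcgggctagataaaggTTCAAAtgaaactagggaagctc
Mki67, chr7:135716380-135716579, minus strand: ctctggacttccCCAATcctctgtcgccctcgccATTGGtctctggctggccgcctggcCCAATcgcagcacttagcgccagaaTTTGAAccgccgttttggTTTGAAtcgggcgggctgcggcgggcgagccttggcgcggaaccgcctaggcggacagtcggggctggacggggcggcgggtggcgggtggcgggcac
In these windows Mcm5, Mcm6 and Mcm7 held no CHR element, and Ccnb2, Cdc20, Top2a and Mki67 held no E2F element of these letters.

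The libraries held between 16.8 M and 27.7 M counts. The 44 genes were well covered, with a median of 1732.5 counts per gene and library and a lowest count of 49, and all of them passed the filter on low counts in every comparison. Per kilobase of the main coding transcript, and over the 11 vehicle libraries, Pcna was highest with a median of 95.0 CPM (a gene's counts relative to the scaled total of its library) per kb (range 54.1 to 145). Birc5, which protects dividing cells from apoptosis, followed with 85.3, Mcm6 with 83.1 and Top2a, which untangles DNA, with 79.6, and the ranges of all 4 overlapped. The lowest were cyclin E2 (Ccne2) with 5.41 CPM per kb and cyclin E1 (Ccne1) with 7.62, again with overlapping ranges. The median over genes was 35.6 CPM per kb for replication genes, 33.1 for mitosis genes and 23.0 for regulators.

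Markers of other cells differed widely between libraries. The 32 hepatocyte markers, all detected in 30 libraries and all but 1 in the other two, summed to between 89.9 and 157000 CPM per library. The lowest 2 sums, 89.9 and 120 CPM, were in vehicle replicates 4 and 1 of the DC-101 experiment. The highest was in high dose replicate 1, which also had the lowest scaling factor (0.678) and the largest share of counts on mitochondrial genes (5.37%). In the anti-PD1 experiment, vehicle replicate 2 and low dose replicate 2 stood apart from their groups. Among protein-coding genes with a main transcript over 8 kb, the median deviation from the experiment's median was -0.49 and -0.97 on the log2 scale in these libraries, and among genes under 2 kb it was 0.25 and 0.45. Genes with over 55% GC deviated by -0.33 and -0.58 in the same libraries. The share of mitochondrial counts was 0.26% and 0.312% there, against 0.919% to 2.23% in the other vehicle and low dose libraries of that experiment. Results that use the vehicle or low dose group of that experiment are therefore given with and without both libraries. Long genes deviated as far in vehicle replicate 3 of that experiment, in the other direction (0.51), and by 0.47 and 0.40 in low dose replicates 1 and 3. Leaving out both libraries therefore does not remove the skew in length. In the dose experiment, vehicle replicate 2 had a like skew in GC content, with -0.30 for genes over 55% GC and 0.31 for genes under 45%, where the other vehicle libraries were within -0.03 to 0.07 in both bins.

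**Figure D1:**
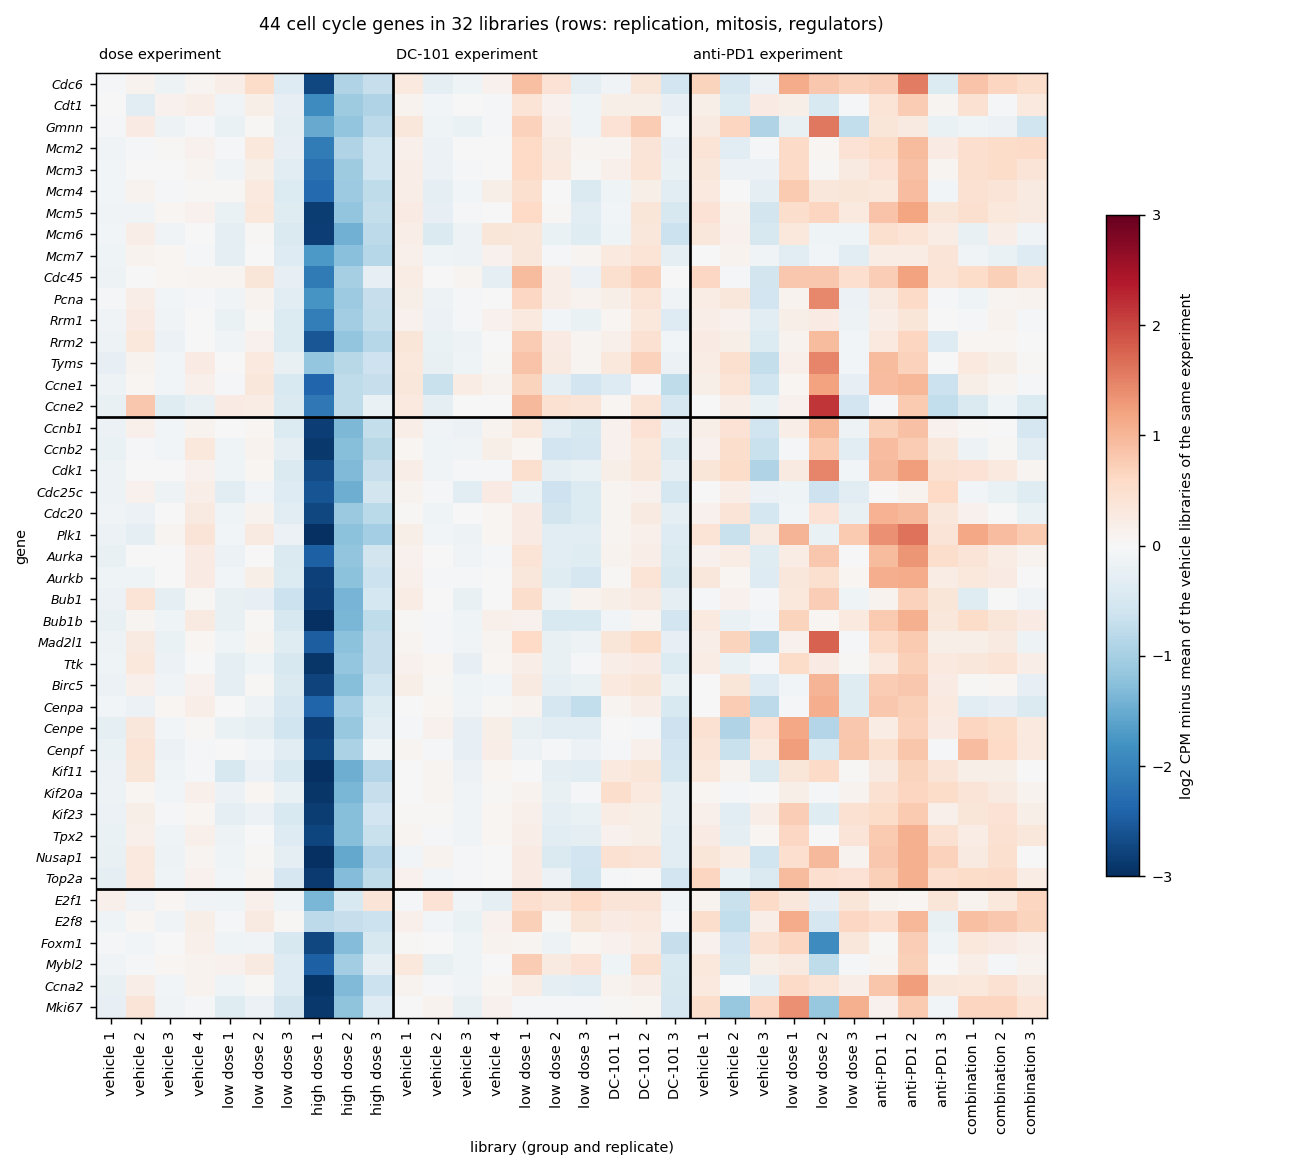
Level of each of the 44 genes (rows) in each of the 32 libraries (columns), as log2 CPM minus the mean of the vehicle libraries of the same experiment. Black lines part the 3 experiments and the replication, mitosis and regulator genes, and the high dose columns are the deepest blue, with medians over the 44 genes of -2.73, -1.19 and -0.68. The next lowest are low dose replicate 3 of the same experiment (-0.40) and DC-101 replicate 3 (-0.36), where 43 genes each lie below the vehicle mean.

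All 44 genes were estimated lower at the high dose than with vehicle, and 22 passed the threshold (edgeR quasi-likelihood test, Benjamini-Hochberg adjusted p under 0.05), where 6.82% of all 16525 genes tested were called lower and 15.6% were called in either direction. The 22 genes were 11 of 16 replication genes, 10 of 22 mitosis genes and 1 of 6 regulators. The median log2 change was -1.17 for replication genes, -1.35 for mitosis genes and -1.11 for regulators, beside a median of 0.02 over all genes. With a score of hepatocyte markers as a covariate these medians were -0.75, -0.89 and -0.69, and 0 genes were called in edgeR, with 29 at an unadjusted p under 0.05. For 41 of the 44 genes every high dose library lay below every vehicle library, which held for 16.6% of all genes. An unadjusted p under 0.05 was reached by 41 genes, against 40.1% of all genes. The adjusted p-values of the members lay close to the threshold, with a smallest value of 0.0216, so the count of 22 is sensitive to small changes of the fit.

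Among the licensing genes, 7 of 10 fell. Mcm6, a subunit of the helicase, had log2 CPM of 7.94, 8.21, 7.92 and 8.01 with vehicle, 7.73, 8.06 and 7.59 at the low dose and 5.20, 6.57 and 7.23 at the high dose. All high dose libraries were lower than all others, and the change was -1.47 ± 0.39 (log2, SE) with an adjusted p of 0.044 in edgeR. Mcm4, another helicase subunit, was at 7.13 to 7.31 with vehicle and at 4.88, 6.11 and 6.46 at the high dose, a change of -1.25 ± 0.33 (edgeR adjusted p = 0.0436). Mcm7 (-1.24 ± 0.20, edgeR adjusted p = 0.0216) and geminin (-1.14 ± 0.19, edgeR adjusted p = 0.0228) had the smallest adjusted p-values of the 44 genes. Mcm5 was at 7.58 to 7.81 with vehicle and at 4.84, 6.49 and 6.97 at the high dose, without overlap, and just missed the threshold (-1.33 ± 0.42, edgeR adjusted p = 0.0539).

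All 4 genes of the fork and of nucleotide supply fell. Rrm2, the regulated subunit of ribonucleotide reductase, had log2 CPM of 6.31, 6.78, 6.27 and 6.46 with vehicle and 3.90, 5.28 and 5.61 at the high dose. The groups did not overlap, and the change was -1.37 ± 0.36 (edgeR adjusted p = 0.0428). Pcna changed by -1.12 ± 0.24, Rrm1 by -1.18 ± 0.29 and Tyms by -0.87 ± 0.19 on the log2 scale. Cyclin E1 (-1.10 ± 0.38, edgeR adjusted p = 0.0665) and cyclin E2 (-0.91 ± 0.46, edgeR adjusted p = 0.173) did not pass, and for cyclin E2 the groups overlapped.

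Among the mitosis genes the largest falls were in spindle genes. Nusap1, which bundles spindle microtubules, had log2 CPM of 6.75, 7.28, 6.83 and 7.05 with vehicle, 6.86, 7.02 and 6.69 at the low dose and 3.79, 5.45 and 6.09 at the high dose. The change was -1.61 ± 0.44, to 0.328 of the vehicle level (edgeR adjusted p = 0.0449). Kif11, the motor that pushes spindle poles apart, was at 7.37 to 7.89 with vehicle and at 4.21, 6.08 and 6.65 at the high dose (-1.60 ± 0.46, edgeR adjusted p = 0.0484). Both genes showed the same order, with high dose replicate 1 far below the others and replicate 3 nearest to vehicle. Plk1 was at 5.45, 5.36, 5.71 and 6.01 with vehicle and at 2.56, 4.40 and 4.62 at the high dose (-1.55 ± 0.42, edgeR adjusted p = 0.0453). Ccnb1 fell by 1.40 ± 0.40 on the log2 scale (edgeR adjusted p = 0.0484), from 6.72 to 7.03 with vehicle to 4.05, 5.54 and 6.17. Top2a just missed the threshold (-1.42 ± 0.42, edgeR adjusted p = 0.0507), with 8.70 to 9.28 against 6.10, 7.68 and 8.23. Of the 8 genes of the cyclin B, Plk1 and Aurora group, 5 were called, of the 6 spindle genes 4, of the 4 checkpoint genes 1 (Mad2l1) and of the 4 centromere genes 0. The centromere genes had log2 changes between -1.31 and -0.94, and the high dose libraries of Cenpf overlapped with vehicle.

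The estimates spread most among the regulators, from -1.37 to -0.32 on the log2 scale. E2f8, a repressor among the E2F factors, had the smallest SE of the 44 genes, with 5.07, 5.25, 5.09 and 5.37 with vehicle and 4.41, 4.50 and 4.56 at the high dose (-0.71 ± 0.13, edgeR adjusted p = 0.0264). E2f1, an activator of replication genes, was at 5.42, 5.16, 5.34 and 5.18 with vehicle and at 3.90, 4.81 and 5.65 at the high dose. High dose replicate 3 was thus above every vehicle library, and the change was -0.32 ± 0.33 (edgeR adjusted p = 0.489). Mki67, which codes for the proliferation marker Ki67, was at 8.59, 9.23, 8.73 and 8.78 with vehicle and at 5.94, 7.63 and 8.44 at the high dose (-1.19 ± 0.47, edgeR adjusted p = 0.0905). Foxm1 and Mybl2, which drive mitosis genes, had estimated changes of -1.24 ± 0.41 and -1.02 ± 0.41 and were not called. 

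**Figure D2:**
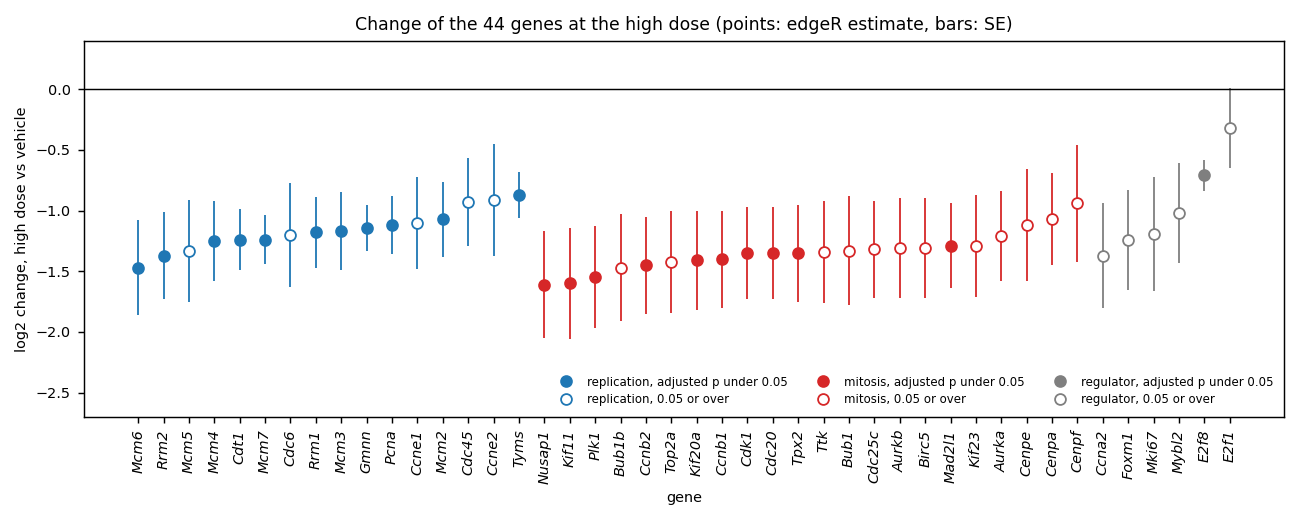
Log2 change of each of the 44 genes at the high dose against vehicle (points, edgeR estimate; bars, SE), ordered within replication, mitosis and regulator genes. Filled points have an adjusted p under 0.05. All points lie below 0, from -1.61 for Nusap1 to -0.32 for E2f1.

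The 3 high dose libraries were far from equal, and markers of other cells moved with the 44 genes. The mean log2 CPM over the 44 genes was 3.96, 5.29 and 5.83 in high dose replicates 1, 2 and 3, against 6.30 to 6.57 with vehicle and 6.07 to 6.53 at the low dose. The hepatocyte markers summed to 157000, 32800 and 5580 CPM in the same 3 libraries, against 2040 to 11800 with vehicle and 4040 to 41900 at the low dose. None of the hepatocyte markers was at 0 in this experiment. High dose replicate 3 lay within the hepatocyte range of the vehicle libraries, and high dose replicates 1 and 2 lay above it. In replicates 1 and 2 the part of liver content cannot be told apart from that of the dose. With the hepatocyte score as a covariate, 43 of the 44 genes were estimated lower, with a median log2 change of -0.82. The 12 macrophage markers summed to 991 to 2390 CPM at the high dose and to 3040 to 4810 CPM with vehicle, without overlap. At the high dose the 12 T cell markers summed to 37.3 to 105 CPM against 17.4 to 32.4 with vehicle. The 8 B and plasma cell markers summed to 49, 514 and 7.21 CPM at the high dose and to 3.87 to 5.39 CPM with vehicle, also without overlap. The part of these immune cells in the fall was not tested.

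**Figure D3:**
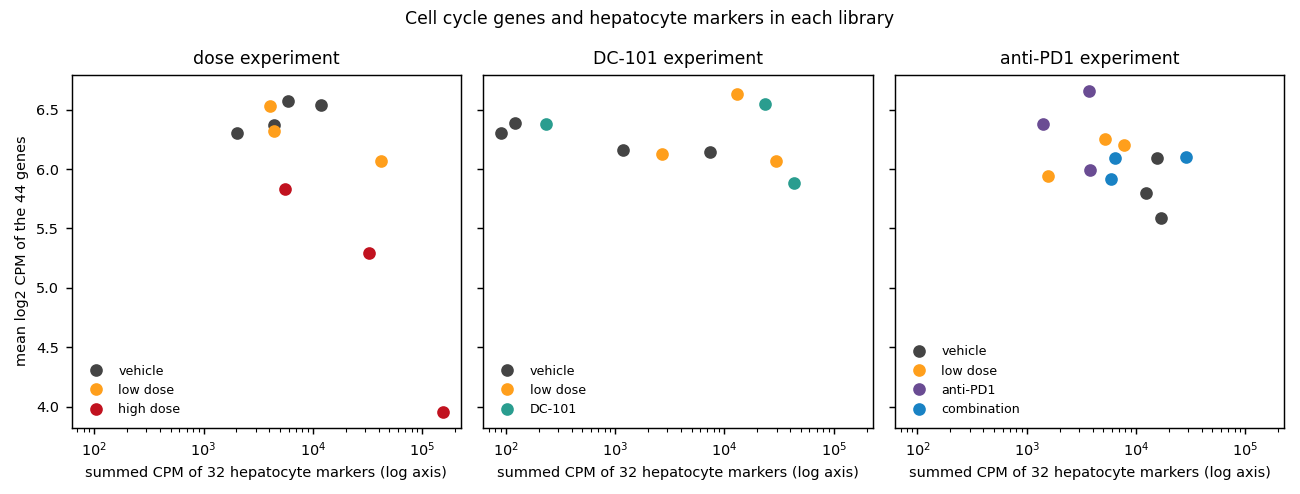
Mean log2 CPM of the 44 genes against the summed CPM of 32 hepatocyte markers (log axis) in each library, coloured by group, for the 3 experiments. In the dose experiment the high dose libraries are at 3.96, 5.29 and 5.83, all below the other 7 libraries, 1 of them inside the hepatocyte range of the vehicle libraries.

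The count of called genes rested on single libraries. Without high dose replicate 1, which had the most hepatocyte signal, 23 of the 44 genes were called and the median log2 change was -0.89, with 43 genes lower. Without high dose replicate 2 the count was 3, and without replicate 3 it was 43 with a median of -1.77. Leaving out any 1 of the 4 vehicle libraries gave 0 calls, with 35 to 41 genes at an unadjusted p under 0.05 and all 44 lower. Without vehicle replicate 2, the library skewed in GC content, 35 genes had such a p and the median was -1.20. DESeq2 called 37 genes and limma voom 24, and 0 were called with the replicate number as a block, where 39 had an unadjusted p under 0.05 and all 44 were lower. Shares of all genes are given for the main fit only, so none stands beside the counts in this paragraph.

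Against the low dose, the high dose gave fewer calls. All 44 genes were estimated lower (median log2 change -1.09), and 5 were called: E2f8 (-0.80 ± 0.14), Gmnn (-0.99 ± 0.20), Mcm7 (-1.02 ± 0.21), Cdt1 (-1.18 ± 0.26) and Tyms (-0.90 ± 0.20), with edgeR adjusted p between 0.0204 and 0.0457. Of all genes, 4.22% were called and 2.48% were called lower. The 5 were 4 replication genes and 1 regulator, while the median log2 change was -1.09 for replication genes and -1.18 for mitosis genes. At an unadjusted p under 0.05, 37 of the 44 genes were found, against 29.3% of all genes, and for 35 of them the groups did not overlap, against 16.2% of all genes. Mki67 changed by -0.82 ± 0.49 (edgeR adjusted p = 0.268), Top2a by -1.26 ± 0.44 (0.115), Ccnb1 by -1.29 ± 0.42 (0.101) and Mcm5 by -1.28 ± 0.44 (0.107). The count was 0 without low dose replicate 1 or 2, 1 without low dose replicate 3 or high dose replicate 2 and 41 without high dose replicate 3. DESeq2 called 23, and 3 were called with the hepatocyte score as a covariate (median -0.85). With total count scaling, the replicate block or only the groups compared the count was 0. No share of all genes stands beside these counts. The macrophage markers also differed without overlap, with 991 to 2390 CPM at the high dose against 6010 to 7770 at the low dose, as did the 8 neutrophil markers, with 85.2 to 163 against 191 to 215 CPM, and their part was not tested. High dose against vehicle and high dose against low dose share the high dose libraries.

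Between the low dose and vehicle of the dose experiment no difference in the 44 genes was detected. None was called by edgeR, where 0% of all genes were called, and none had an unadjusted p under 0.05, against 4.94% of all genes. DESeq2 and voom also called 0. The median log2 change was -0.05 for replication genes, -0.17 for mitosis genes and -0.09 for regulators, and 37 of the 44 were estimated lower. The smallest unadjusted p was that of Mcm7 (-0.22 ± 0.20, edgeR adjusted p = 0.991). Mki67 had log2 CPM of 8.47, 8.66 and 8.29 at the low dose against 8.59 to 9.23 with vehicle (-0.37 ± 0.46), and both groups overlapped. Top2a (-0.16 ± 0.41), Ccnb1 (-0.11 ± 0.39) and Mcm5 (-0.05 ± 0.40) were within 1 SE of 0. The direction over the 44 genes turned once the hepatocyte score entered the fit: 32 were then estimated higher and 12 lower, with medians of 0.11 for replication genes, 0.04 for mitosis genes and 0.09 for regulators. Other markers differed without overlap, with macrophage sums of 6010 to 7770 CPM at the low dose against 3040 to 4810 with vehicle, T cell sums of 33.6 to 48.4 against 17.4 to 32.4, B and plasma cell sums of 8.08 to 14.4 against 3.87 to 5.39 and endothelial sums of 289 to 369 against 379 to 646, and their part was not tested.

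**Figure D4:**
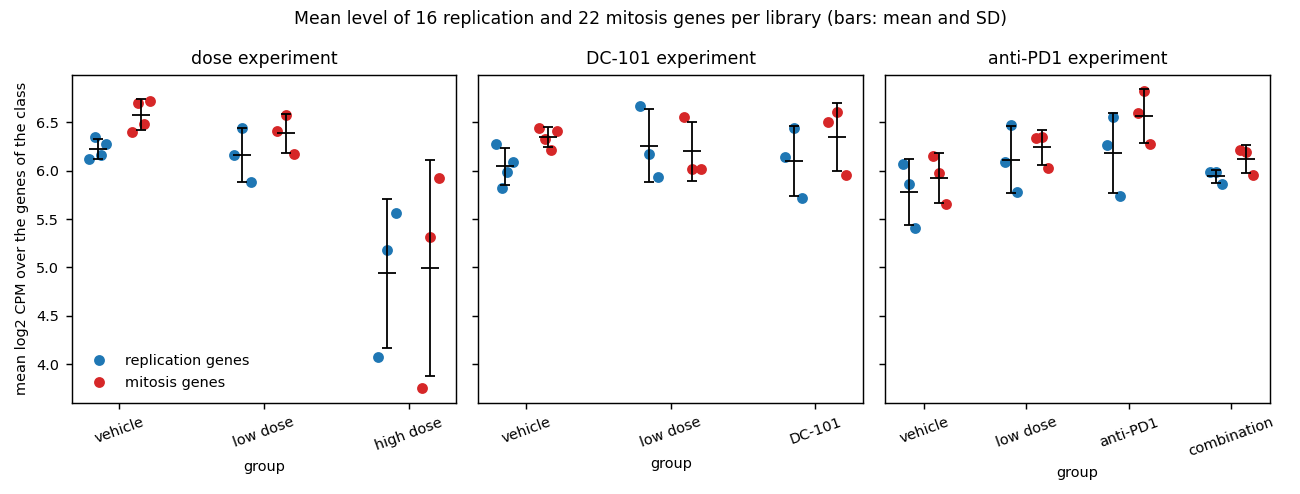
Mean log2 CPM over the 16 replication genes and the 22 mitosis genes in each library (points), with the group mean and SD (bars), for the 3 experiments. The high dose libraries lie at 4.08 to 5.56 for replication and 3.76 to 5.92 for mitosis, below every library of the vehicle and low dose groups of their experiment.

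Other cell cycle genes, from lists that do not hold the 44, were read in the same way. These counts stand beside the 6.82% of all genes that were called lower and the 15.6% called in either direction, and a list with 1 call is near that share. Of 43 further replication genes, 23 fell and 0 rose at the high dose against vehicle, with a median log2 change of -0.90. Clspn, a checkpoint protein of the replication fork, fell most (-1.57 ± 0.42, edgeR adjusted p = 0.0449). Of 51 further mitosis genes, 22 fell and 0 rose (median -1.31), with the largest fall in Ndc80, which ties kinetochores to microtubules (-1.81 ± 0.43, edgeR adjusted p = 0.0376). Of 13 G1 cyclins, CDKs and their partners, 1 fell (Cks2, which binds CDKs, -0.80 ± 0.18, edgeR adjusted p = 0.0342), and of 8 CDK inhibitors 1 fell (Cdkn2d, which blocks Cdk4 and Cdk6, -0.77 ± 0.19, edgeR adjusted p = 0.0399). Of 16 RB, E2F and DREAM genes, 4 fell, most of all E2f2, an activating E2F factor (-1.52 ± 0.28, edgeR adjusted p = 0.0264), and 1 rose (Rbl2, the pocket protein p130 of DREAM, 0.55 ± 0.16, edgeR adjusted p = 0.0477). Of 12 p53 targets 0 were called in edgeR (1 higher and 1 lower at an unadjusted p under 0.05), with a median log2 change of -0.03. Against the low dose, where 2.48% of all genes were called lower and 4.22% in either direction, 7 of the 43 further replication genes fell (Fen1, a flap nuclease, most, -1.29 ± 0.29). Of the 51 further mitosis genes 1 was called, near the share of all genes (Spc24, a kinetochore subunit, -0.94 ± 0.22), and of the 16 RB, E2F and DREAM genes 1 (E2f2, -1.35 ± 0.29). In all other comparisons 0 genes of these 6 lists were called in edgeR.

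In the DC-101 experiment the low dose gave no called member, and the medians of both main classes had opposite signs, which was not so once the hepatocyte score entered the fit. Replication genes had a median log2 change of 0.30 and mitosis genes of -0.12, with 0.20 for the regulators and 0.01 over all genes. None of the 44 genes was called in edgeR (smallest adjusted p = 0.235, 0.0248% of all genes called), 3 had an unadjusted p under 0.05 and were higher (17.1% of all genes), and DESeq2 and voom called 0. The 3 were E2f1, E2f8 and cyclin E2. E2f1 was at 5.25, 5.72, 5.20 and 5.01 with vehicle and at 5.81, 5.67 and 5.90 at the low dose (0.48 ± 0.18, edgeR adjusted p = 0.235). Cyclin E2 was at 4.27, 3.69, 3.99 and 3.98 with vehicle and at 4.96, 4.44 and 4.38 at the low dose (0.62 ± 0.24, edgeR adjusted p = 0.242), and these groups did not overlap. Mki67 was at 8.54, 8.57 and 8.55 at the low dose against 8.38 to 8.75 with vehicle (-0.06 ± 0.15), Top2a changed by -0.13 ± 0.21, Ccnb1 by -0.12 ± 0.22 and Mcm5 by 0.14 ± 0.25. The hepatocyte markers summed to 2670 to 29900 CPM at the low dose and to 89.9 to 7330 with vehicle, and with their score as a covariate 36 of the 44 genes were estimated higher, against 22 without it. The medians were then 0.41 for replication genes, 0.05 for mitosis genes and 0.36 for regulators, and 14 of the 22 mitosis genes were estimated higher. The 12 endothelial markers differed without overlap, with 304 to 342 CPM at the low dose against 461 to 815 with vehicle, and their part was not tested.

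Between DC-101 and vehicle no difference in the 44 genes was detected. Its median log2 changes were 0.07 for replication genes, 0.04 for mitosis genes and -0.01 for regulators. None of the 44 genes was called in edgeR (0% of all genes called), none had an unadjusted p under 0.05 (13.2% of all genes), and DESeq2 called 0 of them. Gmnn had the smallest p, with 5.27, 5.60 and 4.74 against 4.64 to 5.17 with vehicle (0.41 ± 0.24, edgeR adjusted p = 0.479), and the groups overlapped. Mki67 (-0.13 ± 0.15), Top2a (-0.18 ± 0.21), Ccnb1 (0.13 ± 0.22) and Mcm5 (-0.03 ± 0.25) were all within 1 SE of 0. DC-101 replicate 3 was lowest of its group in all 4, and it had the largest hepatocyte sum (42900 CPM, against 231 and 23600 in the other DC-101 libraries). Set directly against DC-101, the low dose gave 0 calls in edgeR (0% of all genes called) and 1 gene with an unadjusted p under 0.05, cyclin E2 (0.60 ± 0.26, edgeR adjusted p = 0.578, 8.45% of all genes), and Mki67 (0.06), Top2a (0.05), Ccnb1 (-0.25) and Mcm5 (0.18) were the log2 differences of the 4 genes named throughout. With the hepatocyte covariate, 40 of the 44 genes were estimated higher with DC-101 than with vehicle, against 28 without it, and 0 were called or had an unadjusted p under 0.05. The endothelial markers summed to 259 to 424 CPM with DC-101, below every vehicle library. These comparisons share the vehicle, low dose or DC-101 libraries.

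In the anti-PD1 experiment the anti-PD1 group had the highest mean level of both main classes, without a call in edgeR. All 44 genes were estimated higher than with vehicle, by a median log2 change of 0.58 for mitosis genes, 0.42 for replication genes and 0.24 for regulators, beside -0.06 over all genes. None was called in edgeR (smallest adjusted p = 0.249, 0% of all genes called), 13 had an unadjusted p under 0.05, all higher (13.7% of all genes), and DESeq2 called 4. The share of all genes that DESeq2 called is not given here. Aurka, the Aurora kinase of the spindle poles, was at 5.42, 5.50 and 4.92 with vehicle and at 6.22, 6.60 and 5.80 with anti-PD1 (0.94 ± 0.28, edgeR adjusted p = 0.249), without overlap. Cyclin A2 (Ccna2), which acts in S phase and G2, was at 7.23, 6.95 and 6.66 against 7.79, 8.21 and 7.28 (0.85 ± 0.26, edgeR adjusted p = 0.249), also without overlap. Top2a changed by 0.70 ± 0.30, Mcm5 by 0.78 ± 0.28 and Ccnb1 by 0.55 ± 0.36.

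Mki67 overlapped between anti-PD1 and vehicle. It was at 7.90, 6.23 and 7.98 with vehicle and at 7.49, 8.15 and 7.29 with anti-PD1 (0.13 ± 0.57), and without vehicle replicate 2 and low dose replicate 2 its log2 change was -0.26. Without both libraries 40 of the 44 genes were still higher with anti-PD1 (median 0.45), 17 had an unadjusted p under 0.05 and 0 were called in edgeR. All 3 anti-PD1 libraries were also low in long genes, by a median of -0.52, -0.25 and -0.28 (log2) over 8 kb, their mitochondrial shares were 0.68%, 0.518% and 0.37%, and their hepatocyte sums were 1400 to 3780 CPM against 12400 to 17000 with vehicle. Endothelial sums of 282 to 326 against 347 to 411 CPM and erythroid sums of 33 to 193 against 195 to 838 also did not overlap. The part of length, mitochondrial share, endothelial and erythroid signal in the change was not tested. Once the hepatocyte score entered the fit, the median was 0.68, with 14 genes at an unadjusted p under 0.05 and 0 called.

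In both libraries that stand apart, the 3 longest and the 3 shortest of the 44 transcripts went opposite ways. Vehicle replicate 2 and low dose replicate 2 deviated from the median of the experiment by -1.71 and -1.70 (log2) for Mki67, with a main transcript of 10.06 kb, by -1.09 and -0.90 for Cenpf (11.13 kb) and by -1.35 and -1.32 for Cenpe (7.91 kb). Gmnn (0.96 kb) deviated by 0.80 and 1.74, Cenpa (1.47 kb) by 0.77 and 1.11 and Birc5 (0.95 kb) by 0.33 and 0.98. Length did not order all of them: Plk1 (2.20 kb, 56.0% GC) deviated by -1.46 and -0.97 and Foxm1 (4.65 kb, 54.6% GC) by -0.77 and -2.08, while cyclin E2 (2.91 kb, 35.1% GC) was up by 0.29 and 2.23. The part of length and of base composition was not tested.

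Low dose regorafenib in the anti-PD1 experiment gave 0 calls in edgeR (0% of all genes called) and 0 genes with an unadjusted p under 0.05 (11.8% of all genes), and DESeq2 called 0. The median log2 change was 0.43 for replication genes, 0.35 for mitosis genes and 0.24 for regulators, and 39 of 44 genes were estimated higher. Cdc45, a part of the active helicase, had the smallest p, with 5.81, 5.80 and 5.51 against 5.61, 4.95 and 4.44 with vehicle (0.63 ± 0.30, edgeR adjusted p = 0.445). Mki67 was at 8.75, 6.24 and 8.44 (0.59 ± 0.57), Top2a changed by 0.57 ± 0.30, Mcm5 by 0.43 ± 0.28 and Ccnb1 by 0.38 ± 0.36. Without both libraries that stand apart, the median over the 44 genes was 0.16 instead of 0.36, 34 were higher, 2 had an unadjusted p under 0.05 and 0 were called. Markers of other cells differed without overlap, with hepatocyte sums of 1580 to 7700 CPM at the low dose against 12400 to 17000 with vehicle, B and plasma cell sums of 16.3 to 50.7 against 5.88 to 9.35, endothelial sums of 136 to 316 against 347 to 411 and erythroid sums of 20.2 to 105 against 195 to 838. With the hepatocyte score as a term the median was 0.47, 37 genes were higher and 1 had an unadjusted p under 0.05, and the part of the other cells was not tested.

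The combination of low dose regorafenib and anti-PD1 lay between vehicle and anti-PD1 in the mean level of both main classes. Against vehicle the median log2 change was 0.05 for replication genes, 0.18 for mitosis genes and 0.32 for regulators. No gene was called in edgeR (0% of all genes called), 1 had an unadjusted p under 0.05 (8.20% of all genes) and DESeq2 called 0. That gene was Plk1, at 5.59, 5.35 and 5.21 against 4.83, 3.76 and 4.70 with vehicle (0.89 ± 0.40, edgeR adjusted p = 0.595). Mki67 changed by 0.38 ± 0.57, Top2a by 0.38 ± 0.30, Mcm5 by 0.31 ± 0.28 and Ccnb1 by -0.18 ± 0.36. Over the 44 genes the median was 0.20 with 30 genes higher, and without both libraries that stand apart it was 0.16 with 34 higher. Without both, 0 genes had an unadjusted p under 0.05, and the log2 changes of Mki67 and Ccnb1 were -0.01 and 0.03. B and plasma cell sums of 15.2 to 58.6 CPM against 5.88 to 9.35 with vehicle and erythroid sums of 22.9 to 161 against 195 to 838 did not overlap, and their part was not tested.

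Against anti-PD1 alone, the combination gave lower values for 39 of the 44 genes. The median log2 change was -0.46 for mitosis genes, -0.26 for replication genes and 0.08 for regulators. None was called in edgeR or DESeq2 (0% of all genes called in edgeR), and 7 had an unadjusted p under 0.05, all lower (8.68% of all genes). Cdc20, the activator of chromosome separation, had the smallest p, with 6.24, 6.12 and 5.91 with the combination and 7.15, 7.08 and 6.45 with anti-PD1 (-0.83 ± 0.29, edgeR adjusted p = 0.476), without overlap. Mki67 (0.25 ± 0.57) was estimated higher, and Top2a (-0.32 ± 0.30), Ccnb1 (-0.73 ± 0.36) and Mcm5 (-0.47 ± 0.28) lower. Other measures also set both groups apart without overlap. The hepatocyte markers summed to 5850 to 28900 CPM with the combination and 1400 to 3780 with anti-PD1, the T cell markers to 56.7 to 119 against 25.8 to 41.7 and the B and plasma cell markers to 15.2 to 58.6 against 5.43 to 6.94. The mitochondrial share was 1.36% to 2.34% against 0.37% to 0.68%, and genes over 8 kb deviated by 0.01 to 0.12 against -0.52 to -0.25 (log2). With the hepatocyte score as a term, 38 genes were estimated lower and 8 had an unadjusted p under 0.05, and the part of the other measures was not tested. Both anti-PD1 comparisons share the anti-PD1 libraries, and both vehicle comparisons the vehicle libraries.

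Over all 3 experiments, with the experiment as a term, no member was called at the low dose in edgeR. Of all 15562 genes 1.77% were called, and 3 of the 44 had an unadjusted p under 0.05 (16% of all genes). Cdc25c, the phosphatase that activates Cdk1, was lower (-0.34 ± 0.10, edgeR adjusted p = 0.0947), and DESeq2 called it. Cdc6 (0.45 ± 0.17, edgeR adjusted p = 0.201) and Cdc45 (0.36 ± 0.15, edgeR adjusted p = 0.264) were higher. Mki67 (0.03 ± 0.25), Top2a (0.07 ± 0.16), Ccnb1 (0.03 ± 0.16) and Mcm5 (0.16 ± 0.14) were not called. The median log2 change over the 44 genes was 0.04, with 29 estimated higher and 15 lower. Without both libraries that stand apart the median was -0.02, with 20 higher, 24 lower, 4 at an unadjusted p under 0.05 and 0 called. With the hepatocyte score as a term the median was 0.10, with 34 higher, 10 lower, 4 at such a p and 0 called. A difference of the low dose change between experiments was called for 0 members in edgeR (0% of all genes called, 0 members and 9.52% of all genes at an unadjusted p under 0.05), and the DESeq2 likelihood ratio test called 0 members. The smallest unadjusted p of the edgeR test among the 44 genes was 0.0558, for Kif11.

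The balance between replication and mitosis genes is given as a description, without a test. As the median log2 change of the 16 replication genes minus that of the 22 mitosis genes, it was 0.17 for the high dose against vehicle, 0.09 for the high dose against the low dose and 0.12 for the low dose against vehicle in the dose experiment. It was largest for the low dose in the DC-101 experiment, with 0.42, against 0.03 for DC-101 and 0.29 for the low dose against DC-101. In the anti-PD1 experiment it was 0.08 for the low dose, -0.15 for anti-PD1, -0.13 for the combination and 0.21 for the combination against anti-PD1, and over the 3 experiments the low dose gave 0.18. Without both libraries that stand apart, it was -0.11 for the low dose, -0.30 for anti-PD1 and 0 for the combination against vehicle. With 1 library left out, the low dose value was -0.13 to 0.18, and it was below 0 without low dose replicate 2 (-0.13) or vehicle replicate 3 (-0.06). In single libraries of the DC-101 experiment, the mean log2 CPM of replication genes minus that of mitosis genes was -0.16, -0.51, -0.22 and -0.32 with vehicle, 0.13, 0.16 and -0.08 at the low dose and -0.36, -0.16 and -0.22 with DC-101. The 3 low dose libraries were thus above all others of that experiment. In the dose experiment the values were -0.44 to -0.28 with vehicle, -0.25, -0.13 and -0.29 at the low dose and 0.32, -0.13 and -0.36 at the high dose, and high dose replicate 3 lay within the vehicle range. In the anti-PD1 experiment the low dose libraries were at -0.24, 0.11 and -0.25 against -0.08, -0.12 and -0.24 with vehicle, and the one value above 0 was that of low dose replicate 2, a library that stands apart. The anti-PD1 libraries were at -0.33, -0.27 and -0.53, below all others of that experiment, and the combination libraries at -0.23, -0.21 and -0.09.

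**Figure D5:**
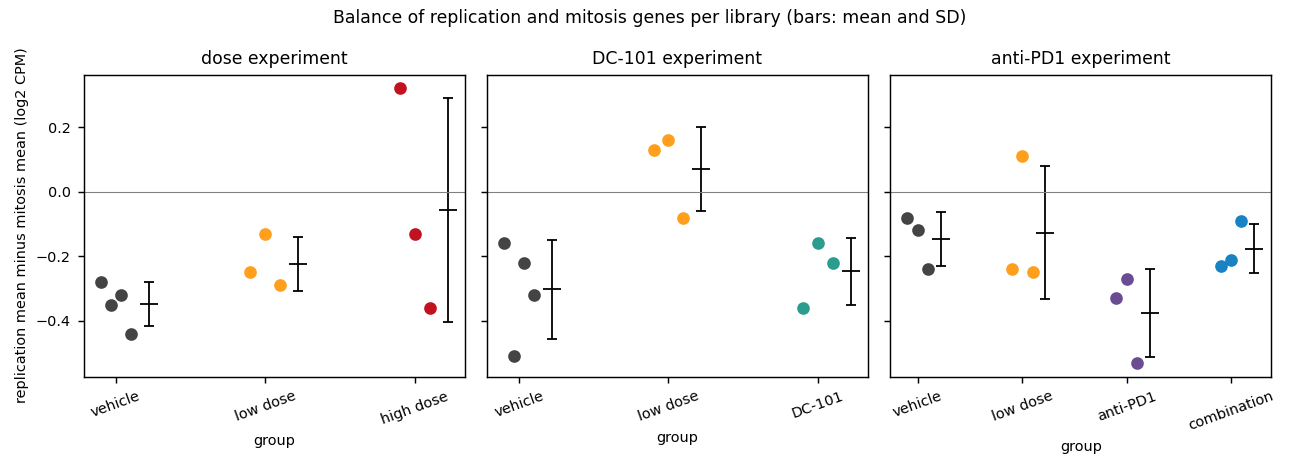
Mean log2 CPM of the 16 replication genes minus that of the 22 mitosis genes in each library (points), with the group mean and SD (bars), for the 3 experiments. In the DC-101 experiment the low dose libraries lie at -0.08 to 0.16 and all other libraries at -0.16 or below. In the anti-PD1 experiment the anti-PD1 libraries lie at -0.53 to -0.27 and all other libraries at -0.25 or above.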

How the data were processed

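Raw read counts per gene, as deposited, were used for all 32 libraries. Per the labels and the study's methods, the authors trimmed reads with cutadapt 2.4 and aligned and counted them with STAR 2.7.2a on GRCm38, and which strand column of the STAR counts was deposited is not given in the sources used here. Of 54446 gene identifiers, 99.93% matched a Gencode M21 symbol. Each experiment was fitted on its own over all genes in R 4.3.3 by edgeR 4.0.16. Low genes were removed with filterByExpr (minimum count 10, minimum total 15), libraries were scaled by TMM, and groups were compared with the robust quasi-likelihood F-test, with Benjamini-Hochberg adjustment over all genes tested and a threshold of 0.05. The low dose was also fitted over the 3 experiments with the experiment as a term, and an interaction asked whether its change differed between them. Levels are TMM log2 CPM with a prior count of 2. Total counts of 16.8 M to 27.7 M set the counting error, and the number of libraries limits the precision. No pair of libraries in a group was alike within sampling noise (lowest chi-square per degree of freedom 12.9 over 36 pairs).

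Alternatives were RLE and total count scaling, no filter, DESeq2 1.42.0, limma 3.58.1 voom, the hepatocyte score as a covariate, the replicate number as a block, the compared groups alone and leaving out each library. Leaving out both anti-PD1 experiment libraries that stand apart was added after seeing the data. The fits were tested on simulated data. Mki67, Top2a, Ccnb1 and Mcm5 were named in every comparison, with the 3 largest rises and falls of each class among called genes or, where none was called, the gene with the smallest p; other members are given as a description. Of other lists, the largest rise and fall among called genes were named. Members, lists and tests were chosen with earlier results of these data known.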

Additional observations from a re-analysis of the deposited data

Results flagged for a closer look

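Of 96 groups of 4 vehicle libraries (the 44 genes, the 3 class means and replication minus mitosis, in the dose and the DC-101 experiment), 3 held a library far from the other 3 by Dixon's test, and chance gives such a library in about 1 in 20 groups. In the dose experiment, vehicle replicate 2 stood above the others for Pcna (7.79 log2 CPM, others 7.51 to 7.54) and for Ccne2 (4.96 log2 CPM, others 3.79 to 3.94). In the DC-101 experiment, vehicle replicate 3 stood below the others for Ttk (4.44 log2 CPM, others 4.74 to 4.80).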

How the results depend on the processing

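For the high dose against vehicle, 22 members were called, and the count was 37 with DESeq2, 4 without the filter, and 0 with total count scaling, the hepatocyte covariate, the replicate block or only the groups compared; leaving out 1 library gave 0 to 43. For the high dose against the low dose, 5 were called, and the count was 23 with DESeq2, 3 with the hepatocyte covariate, 1 without the filter, and 0 with total count scaling, the replicate block or only the groups compared; leaving out 1 library gave 0 to 41. DESeq2 called 4 members for anti-PD1 against vehicle and 1 for the low dose over 3 experiments, where edgeR called 0. No share of all genes stands beside the counts under these alternatives. Whether the replicate numbers pair the libraries was not settled. Deviations of same-numbered libraries correlated over 0.1 in 2 of 9 pairs (dose experiment), 4 of 9 (DC-101) and 6 of 18 (anti-PD1). Such a count cannot decide it, and both libraries that stand apart carry replicate number 2. The block changed no call in the other comparisons.

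Replication minus mitosis was -0.13 to 0.18 (0.08 with all libraries) for the low dose, -0.30 to -0.05 (-0.15) for anti-PD1 and -0.16 to 0 (-0.13) for the combination against vehicle in the anti-PD1 experiment on leaving out 1 library, and -0.11, -0.30 and 0 without both libraries that stand apart. None of the log2 changes that turned sign had passed the threshold. On leaving out 1 library these ranged, at the low dose of the dose experiment, from -0.18 to 0.03 for Ccnb1 and -0.26 to 0.09 for Mcm5. At the low dose of the DC-101 experiment they ranged from -0.37 to 0.06 for Top2a, -0.40 to 0.03 for Ccnb1 and -0.14 to 0.33 for Mcm5. For DC-101 they ranged from -0.20 to 0.03 for Mki67, -0.02 to 0.29 for Ccnb1 and -0.25 to 0.15 for Mcm5, and for the low dose against DC-101 from -0.10 to 0.13 for Mki67, -0.21 to 0.24 for Top2a and -0.12 to 0.39 for Mcm5. In the anti-PD1 experiment they ranged from -0.02 to 0.61 for Ccnb1 at the low dose, -0.24 to 0.40 for Mki67 with anti-PD1 and -0.43 to 0.04 for Ccnb1 with the combination. Over 3 experiments they ranged from -0.11 to 0.11 for Mki67, -0.01 to 0.15 for Top2a and -0.10 to 0.09 for Ccnb1.

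With the hepatocyte covariate the log2 changes were 0.05 for Top2a, 0.12 for Ccnb1 and 0.19 for Mcm5 at the low dose of the dose experiment, 0.14 for Mki67, 0.07 for Top2a and 0.04 for Ccnb1 at that of the DC-101 experiment, and 0.03 for Mki67 and 0.05 for Mcm5 with DC-101. Without the anti-PD1 experiment, those of the low dose over the other experiments were -0.22 for Mki67, -0.14 for Top2a and -0.11 for Ccnb1. Without both libraries that stand apart, they were -0.26 for Mki67 with anti-PD1, -0.01 for Mki67 and 0.03 for Ccnb1 with the combination, and -0.02 for Mki67 and -0.05 for Ccnb1 over 3 experiments. The cause was not tested.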
